A study of Mus musculus with 4 samples.

Results

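The replication-dependent histone genes were taken as the protein-coding genes of the mouse annotation whose symbol begins with Hist1h, Hist2h, Hist3h or Hist4h. There were 67 of them among 22367 protein-coding genes on the assembled chromosomes of mm9. Their promoters were followed in the ATAC-seq peak lists of im-scWAT cells, a culture of stromal vascular cells from mouse subcutaneous white adipose tissue. ATAC-seq marks open chromatin, because the Tn5 transposase cuts and tags DNA that is accessible in the nucleus. A promoter was called open in a library when a peak of its list had the summit, its highest point, within 1 kb of any annotated transcription start site (TSS) of the gene.

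The series held 4 libraries, 1 per group. WT cells carry normal Jmjd1a (genotype Jmjd1a +/+), which encodes a demethylase of histone H3 lysine 9. HY cells are homozygous for an allele (genotype Jmjd1a HY/HY) in which a histidine needed for that activity is replaced by tyrosine. Each genotype was harvested on day 0 (D0), before induction, and on day 8 (D8), after induction with indomethacin, dexamethasone, 3-isobutyl-1-methylxanthine, rosiglitazone, insulin and T3 and then a medium with insulin, T3 and rosiglitazone, which drives the cells towards beige adipocytes. All 4 groups share the immortalisation with SV40 large T antigen, which was delivered by a retrovirus to cells of 5-week-old mice. The labels name no separate cultures within a genotype, so the allele and the culture that carries it cannot be told apart. With no replicate, every difference below compares libraries, no test between groups was possible, and the 95% intervals cover counting error only.

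Histones are the proteins around which DNA is wound. H2A, H2B, H3 and H4 form the core of the nucleosome, and the linker histone H1 binds where the DNA enters and leaves it. The replication-dependent genes are short, mostly without introns, and sit together in clusters, and they supply histones when DNA is copied in S phase. Their mRNAs end in a stem-loop instead of a poly(A) tail, and the clusters gather in a nuclear structure, the histone locus body, around the transcription regulator NPAT.

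The promoter sequences carry the elements by which these genes are known, so 7 of them are shown from the mm9 reference, each 5' to 3' along its gene, with the letters found in it in capitals: TATAAA (the TATA box), CCAAT (the site of the factor NF-Y), ATTTGCAT (the octamer), AAACACA (the H1 box) and GGTCCG (the core of the H4 element called Site II), or the reverse complement of one of these. The first is the whole stretch between the starts of a divergent H2A/H2B pair, Hist1h2ac to the left and Hist1h2bc to the right, which had among the highest peaks of the family. The others are the 250 bp before the start: Hist1h3e and Hist1h4d are a core histone gene each with summits close to the start, Hist1h1c is an open H1 gene, Hist1h1t is the gene without a peak, and Hist1h1b and Hist1h2ba had calls that differed between libraries. Hist1h3e and Hist1h4d were picked after their values were seen.
Hist1h2ac/Hist1h2bc, chr13:23775818-23776067, plus strand: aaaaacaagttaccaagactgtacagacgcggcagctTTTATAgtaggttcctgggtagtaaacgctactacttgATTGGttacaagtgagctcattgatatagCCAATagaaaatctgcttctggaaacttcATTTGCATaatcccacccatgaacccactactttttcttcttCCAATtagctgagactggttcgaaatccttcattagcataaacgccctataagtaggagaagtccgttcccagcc
Hist1h3e, chr13:23654239-23654488, minus strand: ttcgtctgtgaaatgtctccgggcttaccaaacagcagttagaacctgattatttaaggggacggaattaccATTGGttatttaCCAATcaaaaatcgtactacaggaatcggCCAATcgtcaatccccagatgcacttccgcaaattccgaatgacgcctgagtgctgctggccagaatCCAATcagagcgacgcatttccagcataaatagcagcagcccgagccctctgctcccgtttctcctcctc
Hist1h4d, chr13:23673217-23673466, plus strand: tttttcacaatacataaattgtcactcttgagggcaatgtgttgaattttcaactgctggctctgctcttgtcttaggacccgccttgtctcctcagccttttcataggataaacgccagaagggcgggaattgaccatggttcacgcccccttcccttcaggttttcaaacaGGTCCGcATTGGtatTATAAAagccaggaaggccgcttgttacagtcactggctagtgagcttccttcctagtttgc
Hist1h1c, chr13:23830426-23830675, plus strand: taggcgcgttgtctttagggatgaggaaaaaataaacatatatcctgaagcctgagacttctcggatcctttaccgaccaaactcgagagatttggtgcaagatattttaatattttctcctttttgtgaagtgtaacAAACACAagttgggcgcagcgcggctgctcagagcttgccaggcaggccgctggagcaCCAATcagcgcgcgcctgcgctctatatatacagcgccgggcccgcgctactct
Hist1h1t, chr13:23787430-23787679, plus strand: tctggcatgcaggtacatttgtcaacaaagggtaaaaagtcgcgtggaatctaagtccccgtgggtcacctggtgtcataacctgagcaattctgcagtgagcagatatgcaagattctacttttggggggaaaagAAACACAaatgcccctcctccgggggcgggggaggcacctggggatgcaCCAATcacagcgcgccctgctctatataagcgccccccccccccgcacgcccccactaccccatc
Hist1h1b, chr13:21872495-21872744, minus strand: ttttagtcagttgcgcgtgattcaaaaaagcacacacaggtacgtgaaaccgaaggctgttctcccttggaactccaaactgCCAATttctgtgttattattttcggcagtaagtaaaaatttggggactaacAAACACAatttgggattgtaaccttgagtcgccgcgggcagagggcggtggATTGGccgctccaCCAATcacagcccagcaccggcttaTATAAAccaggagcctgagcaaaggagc
Hist1h2ba, chr13:24026026-24026275, minus strand: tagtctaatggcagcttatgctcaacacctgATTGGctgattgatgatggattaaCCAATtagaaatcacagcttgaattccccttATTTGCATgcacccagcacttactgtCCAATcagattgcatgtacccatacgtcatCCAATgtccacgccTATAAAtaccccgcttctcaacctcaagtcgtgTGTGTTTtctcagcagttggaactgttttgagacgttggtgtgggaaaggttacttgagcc

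Members less than 500 kb apart were placed in 1 cluster, which gave 6. The Hist1 genes of chromosome 13 formed a first cluster of 23 members (chr13:21807632-22135545, Hist1h2bl to Hist1h2bj, 328 kb) and a second of 31 members (chr13:23622919-24026720, Hist1h4h to Hist1h2aa, 404 kb). Hist1h2al stood alone on the same chromosome (chr13:51298057-51298434). The Hist2 cluster held 9 members (chr3:96023839-96082924, 59.1 kb), Hist3 held 2 (chr11:58762413-58770176) and Hist4h4 was single (chr6:136752589-136752900). By type, 6 members encode H1, 19 H2A, 18 H2B, 11 H3 and 13 H4. Because members within 1 kb of each other can share a promoter, the 67 genes made up 52 promoter units, of which 12 joined H2A with H2B genes and held 25 members.

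Nearly all members were open in every library. In WT D0, 62 of 67 (92.5%, exact binomial interval 83.4% to 97.5%) had a promoter peak, beside 58.4% of all protein-coding genes. In WT D8 the count was again 62, beside 53.2% of all genes. HY D0 had 66 open members (98.5%, lower limit 92.0%), beside 59.3%, and HY D8 had 64 (95.5%, 87.5% to 99.1%), beside 54.7%. In all 4 libraries together, 61 members (91.0%, 81.5% to 96.6%) were open, against 50.8% of all genes. One peak often served several members: the open members rested on 46 distinct peaks at D0 and 45 at D8 in WT, and on 49 and 50 in HY. The binomial intervals above count each gene as a separate trial and take no account of shared peaks.

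Calls differed between libraries for 5 members. With differentiation, 0 members of WT cells had a promoter peak at D0 and none at D8, beside 6.42% of all genes, and 2 did in HY cells, beside 5.96%. A peak at D8 where D0 had none was found for 0 members in WT (1.22% of all genes) and 0 in HY (1.30%). Between genotypes, 4 members were open in HY and not in WT at D0 (2.29% of all genes) and 3 at D8 (2.77%). In the other direction the count was 0 at D0 (1.36%) and 1 at D8 (1.30%). These counts are small and depend on the limits used. With the summit within 500 bp, 3 members were open in HY alone and 5 in WT alone at D0, beside 2.52% and 1.82% of all genes under the same limit. With all lists shortened to 41228 peaks it was 2 and 2, beside 2.01% and 1.67%. With such lists, 6 members in WT and 7 in HY were open at D8 and not at D0, beside 3.50% and 3.18% of all genes in lists shortened the same way. The peaks found in HY alone were weak, as given next.

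The 4 members open in HY alone at D0 lie at the edge of their clusters or outside them. Hist3h2ba, an H2B gene of the Hist3 cluster, had a summit pileup, the number of overlapping tags at the summit, of 8 in HY D0 with no peak in the other libraries, where the nearest summit lay 6141 to 6168 bp away. Hist1h2ba and Hist1h2aa, the germ cell forms of H2B and H2A, share 1 peak, whose pileup was 8 on both days in HY cells, and had no call in either WT library. Hist1h2al, also of HY cells only, had 11 at D0 and 8 at D8. All of these stood far below the usual histone promoter, whose median pileup in HY cells was 50 at D0 and 28 at D8. The lowest pileup that WT D0 and WT D8 listed at the background of the peaks around these places was 5, except for Hist3h2ba. There the surrounding peaks had a higher median background, 2.15 in WT D0 and 1.25 in WT D8, with lowest pileups of 8 and 6. The Hist3h2ba peak of HY D0 itself had a background of 0.708, the genome-wide rate of that library. At the genome-wide rate the lowest listed pileup was 5 in WT D0 and 5 in WT D8. Signal below those levels in WT could not be read from the lists.

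Hist1h1b, which encodes an H1 linker histone, was the 1 member open in WT and not in HY at D8. Its pileup was 22 at D0 and 16 at D8 in WT and 30 at D0 in HY. In HY D8 the nearest summit lay 1113 bp from its start, just outside the limit of 1 kb, with a pileup of 28. Local background was high there, with a median of 3.83 over the peaks around it, and the lowest pileup called in HY D8 at such a background was 12. Just inside the limit lay the summits assigned to Hist1h3c, 912 to 971 bp before its start, and that of Hist2h2aa2 in HY D0, 970 bp after its start. Calls of this kind can belong to a neighbour: the Hist1h3c summits lie 161 to 220 bp before the start of Hist1h2bb and are the same peaks.

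Hist1h1t, the testis form of H1, was the only member with no promoter peak in any library. The nearest summit lay 2585 to 2618 bp from its start, at the promoter of the neighbouring H4 gene Hist1h4c. Its promoter, printed above, holds CCAAT and the H1 box letters, as do those of Hist1h1c and Hist1h1b, which had peaks. Of the 3 germ cell histones, Hist1h1t, Hist1h2aa and Hist1h2ba, none was open in WT D0 or WT D8 and 2 were open in HY D0 and HY D8. These 2 rest on the 1 weak shared peak described above. Its summit lay 303 to 315 bp from the start of Hist1h2ba and 609 to 621 bp from that of Hist1h2aa. Over all genes, 2.29% at D0 and 2.77% at D8 were open in HY and not in WT.

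**Figure D1:**
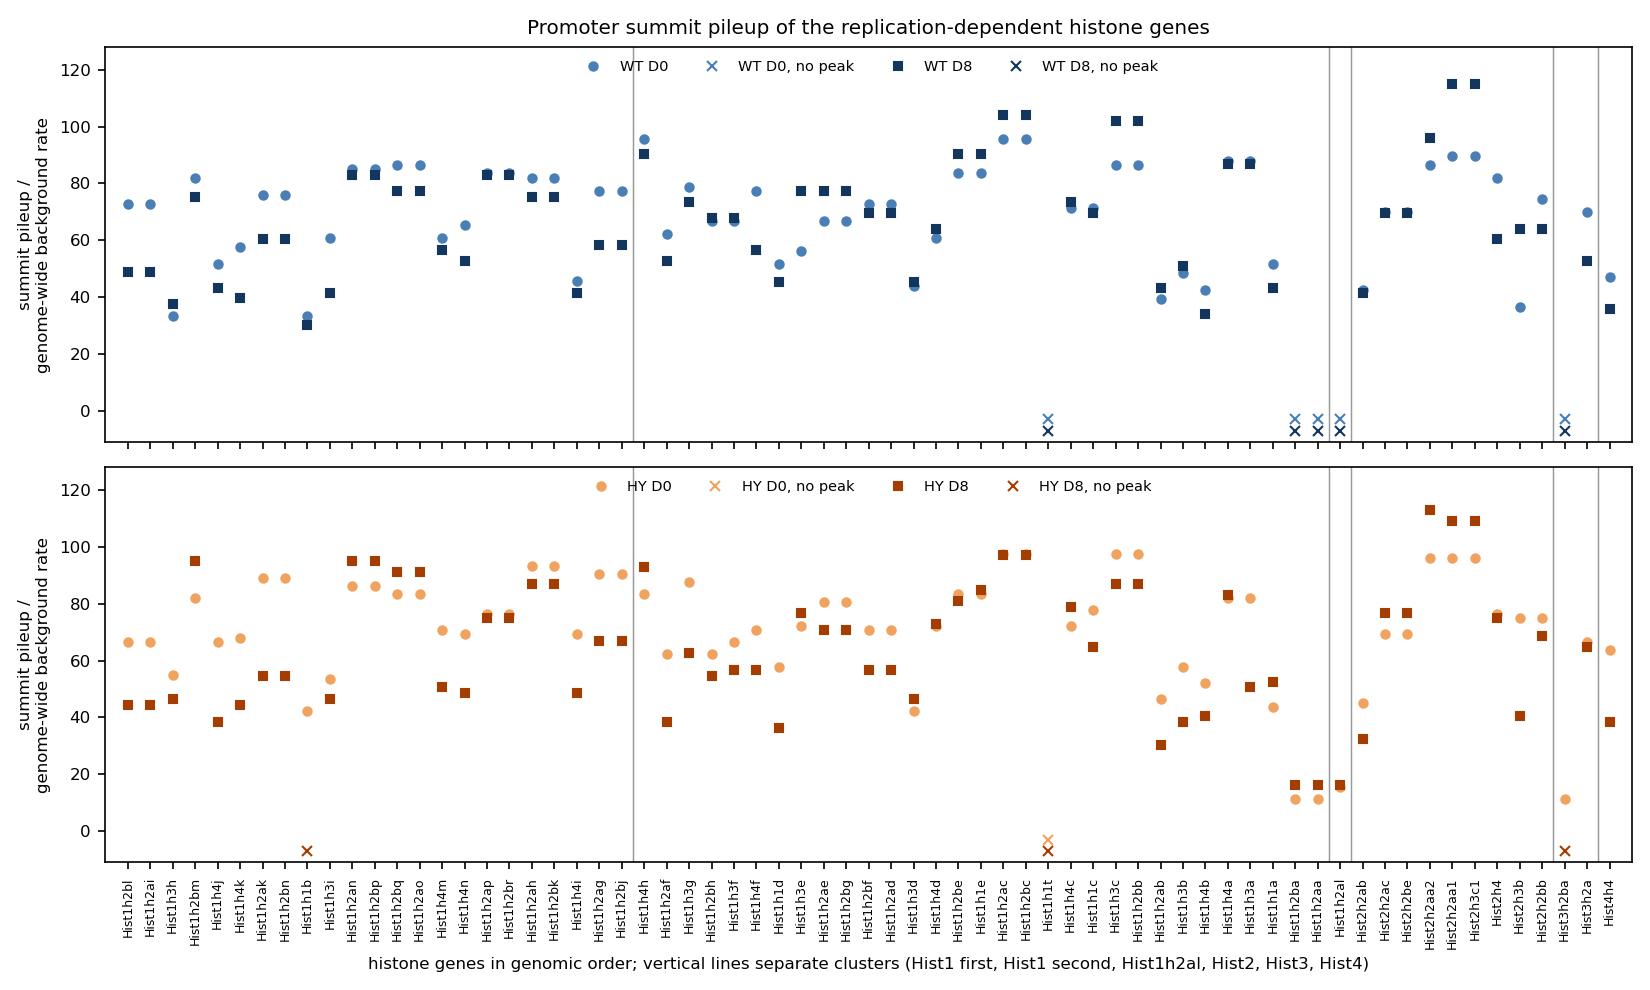
Summit pileup divided by the genome-wide background rate of the library (y axis, no unit) for the 67 histone genes in genomic order (x axis), with WT above and HY below, circles for D0, squares for D8 and crosses for no promoter peak; vertical lines separate the clusters. Values lie between 30.4 and 115 for the members open in all 4 libraries, and the 4 members with a peak in HY only lie between 11.3 and 16.2.

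To compare levels between libraries of unequal depth, the pileup was divided by the genome-wide background rate (scaled pileup). That rate was 0.659 at D0 and 0.531 at D8 in WT and 0.708 at D0 and 0.494 at D8 in HY, which puts the depth at 1.00, 0.806, 1.07 and 0.750 relative to WT D0. The lists held 71523, 41228, 77994 and 48964 peaks in the same order. The median histone promoter had a pileup of 46, 32, 50 and 28, against 33, 27, 39 and 27 for all open promoters. On the scaled level the histone medians were 69.8, 60.3, 70.7 and 56.7, against 50.1, 50.9, 55.1 and 54.6. Histone promoters were thus above the median of all open promoters at D0 and nearer to it at D8.

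The linker histone H1 genes were the lowest type at D0, with a median pileup of 34 in WT and 41 in HY. Across the 5 open H1 genes of WT D0 the pileup ran from 22 to 55. Hist1h1e was the highest, with a pileup of 55 at D0 and 48 at D8 in WT and 59 at D0 and 42 at D8 in HY. Its summit lay 795 to 802 bp past its start in the first 3 of these libraries, beyond the end of the 748 bp gene, and 8 bp before its start in HY D8. The peak in the first 3 libraries is also the one given to Hist1h2be, whose annotated start lies 576 to 583 bp from these summits and whose gene model spans 37383 bp. Hist1h1c had pileups of 47, 37, 55 and 32 in the order WT D0, WT D8, HY D0 and HY D8, with the summit 18 bp past the start in WT D0 and 854 to 906 bp past it in the others. Hist1h1a had 34, 23, 31 and 26, with summits 10 to 59 bp before the start. All 3 genes had a higher pileup at D0 than at D8 in both genotypes before scaling. After scaling, their D8 to D0 ratios ran from 0.833 (0.521 to 1.31) for Hist1h1c in HY to 1.20 (0.685 to 2.09) for Hist1h1a in HY, and each interval took in 1.

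The H2A and H2B genes, whose products pair with each other in the nucleosome, had the widest peaks and the highest medians. In WT D0 the median pileup was 50 for the 17 open H2A genes and 52.5 for the 16 open H2B genes, against 40 for H3 and 40 for H4, and the median peak was 1045 and 1044 bp wide, against 734 and 626 bp. In 12 cases neighbouring H2A and H2B genes are transcribed away from each other, with 167 to 305 bp (median 228 bp) between their starts. The summit lay between the starts in 8 of 11 open pairs at D0 and 6 of 11 at D8 in WT and 8 of 12 at D0 and 8 of 12 at D8 in HY. The highest of these pairs, Hist1h2ac and Hist1h2bc, had a pileup of 63 at D0 and 55 at D8 in WT and 69 at D0 and 48 at D8 in HY, with scaled levels of 95.6, 104, 97.5 and 97.1. The D8 to D0 ratio of that pair was 1.08 (0.741 to 1.58) for WT cells and 0.996 (0.674 to 1.46) for HY cells. Hist1h2bp, which shares its peak with Hist1h2an, had 56, 44, 61 and 47, and its scaled levels of 85.0, 82.9, 86.2 and 95.1 lay close together too. Hist1h2bb had 57, 54, 69 and 43.

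In the Hist2 cluster, Hist2h2aa1 (H2A) and Hist2h3c1 (H3) have starts next to each other, at positions 96049461 and 96049477 of chromosome 3, and shared the highest scaled level of the family, a mean of 102. Their pileup was 59 at D0 and 61 at D8 in WT and 68 at D0 and 54 at D8 in HY, so that WT D8 was not below WT D0 even before scaling. The D8 to D0 ratio was 1.28 (0.882 to 1.87) for WT cells and 1.14 (0.781 to 1.65) for HY cells. The summit lay 40 bp before the start of Hist2h2aa1 in WT D0 and 913 to 962 bp past it in the other libraries, so the WT ratio compares separate places within a wide peak. Hist2h2aa2, a near copy of Hist2h2aa1, had 57, 51, 68 and 56, with summits before its start in WT and 956 to 970 bp past it in HY. These promoters are repeated in the genome: 80.1% of the 50-mers of each also occur elsewhere in mm9, so tags could be placed at the wrong copy.

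Among the H3 genes, Hist1h3a and Hist2h3b had the lowest D8 to D0 ratios in HY. Hist1h3a had a pileup of 58 at D0 and 46 at D8 in WT and 58 at D0 and 25 at D8 in HY, and the D8 to D0 ratio was 0.984 (0.654 to 1.47) for WT cells and 0.617 (0.370 to 1.00) for HY cells. The 3 higher values belong to a peak with its summit 719 to 943 bp past the start of Hist1h3a, which is also the peak of the H4 gene Hist1h4a. In HY D8 the call is a separate summit 150 bp past the start, while Hist1h4a had a pileup of 41. Hist2h3b had 24, 34, 53 and 20, with the summit 85 bp past the start in WT D0, 273 bp past it in HY D8, and 929 to 947 bp past it, at the neighbouring Hist2h2bb, in WT D8 and HY D0. For these members the libraries therefore differ in which peak was taken, and both were picked after their values were seen, Hist1h3a also as 1 of the 3 highest H3 genes. Hist1h3e, printed above, had 37, 41, 51 and 38, the only one of the printed promoters with a higher pileup at D8 than at D0 in WT.

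The 13 H4 genes each stand as a promoter unit of their own. Hist1h4h was the highest, with a pileup of 63 at D0 and 48 at D8 in WT and 59 at D0 and 46 at D8 in HY. Hist1h4a had 58, 46, 58 and 41, and Hist1h4c had 47, 39, 51 and 39. All 3 were higher at D0 than at D8 in pileup, and on the scaled level their D8 to D0 ratios ran from 0.946 (0.636 to 1.40) for Hist1h4h in WT to 1.12 (0.742 to 1.67) for the same gene in HY. Hist4h4, the single member on chromosome 6, had 31 at D0 and 19 at D8 in WT and 45 at D0 and 19 at D8 in HY, with ratios of 0.761 (0.406 to 1.39) for WT cells and 0.605 (0.334 to 1.05) for HY cells. Hist3h2a, the H2A gene of the Hist3 cluster, had 46, 28, 47 and 32, and its ratios were 0.756 (0.455 to 1.23) and 0.975 (0.602 to 1.56). Its peak is also that of Trim17, a neighbouring gene with an annotated start equally far from the summit, and the signal cannot be assigned to either.

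Summing the pileups over distinct peaks gives more precise ratios. From D0 to D8 the scaled ratio over all members open in both libraries was 0.944 (0.882 to 1.01, 45 peaks) for WT cells and 0.893 (0.836 to 0.955, 47 peaks) for HY cells. The median over all open promoters was 0.969 (quartiles 0.790 and 1.14) in WT and 1.01 (0.809 and 1.18) in HY. At D0 the HY to WT ratio was 1.07 (1.00 to 1.13), equal to the median of all promoters, 1.07, and at D8 it was 1.00 (0.933 to 1.08), beside a median of 1.11. With that median set to 1, the ratio at D8 was 0.904 (0.839 to 0.972). The HY change with differentiation divided by the WT change was 0.947 (0.862 to 1.04), an interval that takes in 1.

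By histone type, H4 promoters were lower at D8 in both genotypes, at 0.869 (0.762 to 0.991) for WT cells and 0.840 (0.738 to 0.955) for HY cells, over 13 peaks each, with the median H4 gene at 0.840 and 0.774. Of these 13 peaks, 11 in WT and 9 in HY were below 1, beside 55.0% and 48.9% of all promoters open in both libraries, and the interval of each single H4 gene took in 1. The 5 H4 genes of the first Hist1 cluster ran from 0.686 to 0.931 for WT cells and from 0.579 to 0.716 for HY cells, and the 6 of the second from 0.730 to 1.06 and from 0.774 to 1.12. Summed over the 8 H4 genes outside the first cluster, a split chosen after the values were seen, the ratio was 0.888 (0.755 to 1.04) for WT cells and 0.941 (0.803 to 1.10) for HY cells, and both intervals took in 1. The WT value depends on the scaling as well: with the median of all promoters set to 1, an alternative chosen after the values were seen, H4 stood at 0.897 (0.786 to 1.02) for WT cells and 0.833 (0.732 to 0.947) for HY cells. For H2A the ratios were 0.960 (0.864 to 1.07) and 0.921 (0.831 to 1.02), for H2B 0.956 (0.861 to 1.06) and 0.927 (0.835 to 1.03), and for H1 0.957 (0.767 to 1.19) and 0.908 (0.715 to 1.15). H3 was the type in which the genotypes differed most, with 1.10 (0.964 to 1.27) for WT cells and 0.842 (0.732 to 0.967) for HY cells, a ratio of the ratios of 0.762 (0.630 to 0.923). This was 1 of 5 types compared, and the value rests in part on Hist1h3a and Hist2h3b. When each gene was given the summit nearest to its start in place of the highest within 1 kb, the ratio of ratios for H3 was 0.825 (0.674 to 1.01) and took in 1. With the nearest summit, H2B in HY stood at 0.899 (0.809 to 0.998), below 1, and H1 in WT at 0.882 (0.695 to 1.12).

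By cluster, the first Hist1 cluster was lower at D8, at 0.858 (0.763 to 0.966) for WT cells and 0.834 (0.741 to 0.936) for HY cells, with 15 of 16 and 12 of 15 peaks below 1, beside 55.0% and 48.9% of all promoters open in both libraries. This value and that of the H4 type rest in part on the same 5 peaks. Without its H4 genes the first cluster stood at 0.868 (0.756 to 0.996) for WT cells and 0.905 (0.789 to 1.04) for HY cells, where the interval took in 1. The second Hist1 cluster stood at 1.00 (0.910 to 1.11) and 0.901 (0.818 to 0.992). The Hist2 cluster stood at 1.00 (0.842 to 1.20) and 1.04 (0.874 to 1.23). Other protein-coding genes inside the first Hist1 cluster had median ratios of 0.490 in WT (3 genes) and 0.517 in HY (2 genes). Inside the second the medians were 1.24 (3 genes) and 1.08 (2 genes), with Gm17658 counted through a peak shared with Hist1h4d. Whether the lower level at D8 is particular to the histone promoters of the first cluster was not tested. Neighbouring peaks share their surroundings and are not replicates of a cluster.

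**Figure D2:**
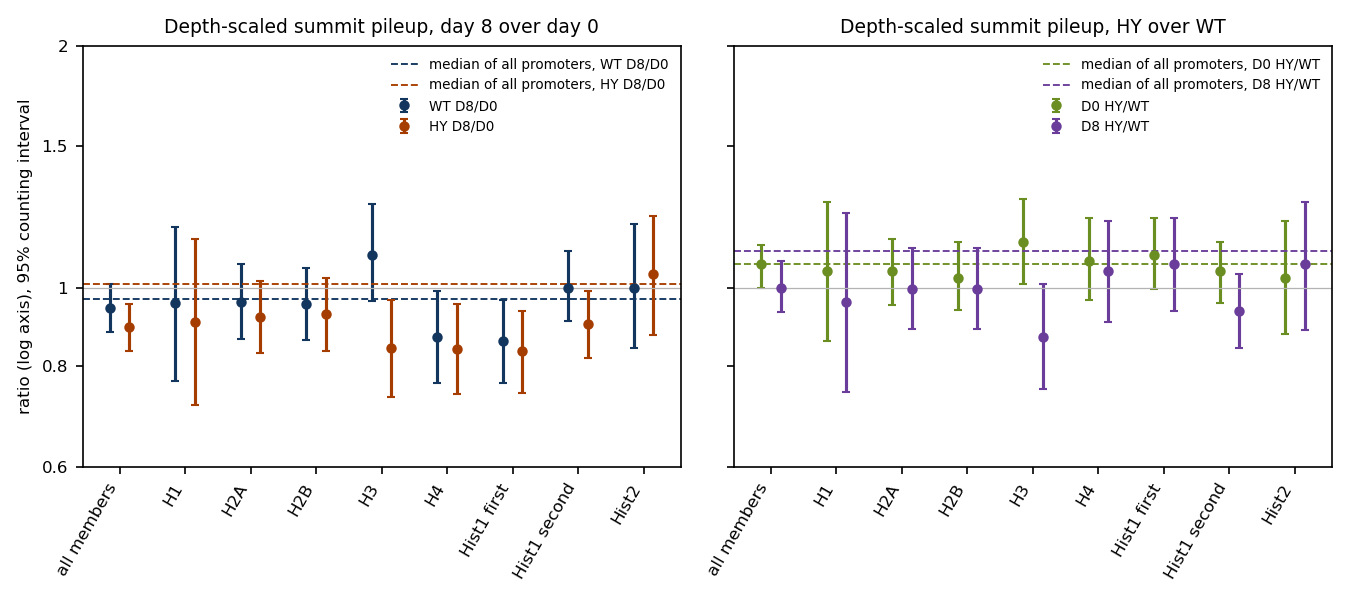
Ratio of depth-scaled summit pileups summed over distinct peaks (y axis, log scale, with 95% counting intervals) for all members, each histone type and the clusters of more than 2 members (x axis), D8 over D0 on the left and HY over WT on the right; dashed lines mark the median over all open promoters. H4 and the first Hist1 cluster, which have 5 genes in common, lie below 1 at D8 in both genotypes, and H3 lies at 1.10 in WT and 0.842 in HY.

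The peak caller sets each summit against a local background, the tag density around it, and there the histone promoters had a higher level than other promoters. The median local background at histone peaks was 5.84 at D0 and 3.80 at D8 in WT and 7.28 at D0 and 3.35 at D8 in HY, against 2.13, 1.71, 2.46 and 1.70 for all open promoters. Divided by the genome-wide rate these are 8.86, 7.16, 10.3 and 6.78, against 3.24, 3.22, 3.47 and 3.44. The fold of the summit over this background was lower than elsewhere although the summits were higher: the median fold was 6.37, 6.77, 5.79 and 7.04, against 10.3, 9.82, 10.7 and 9.94. The window over which the local background was taken is not given in the sources used here.

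This local background also varied between libraries more than the summits did. From D0 to D8 its scaled median ratio at histone peaks was 0.866 in WT, below 1 at 42 of 45 peaks, and 0.682 in HY, below 1 at 46 of 47. Over all promoters the median was 0.949 (quartiles 0.793 and 1.11) in WT and 0.953 (0.780 and 1.12) in HY. Between genotypes at D0 the ratio was 1.22, with 0 of 45 histone peaks below 1, beside 1.08 (1.000 and 1.17) for all promoters. At D8 it was 0.949, with 31 of 44 below 1, beside 1.09 (1.00 and 1.18).

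The background ratio from D0 to D8 was 0.808 in WT and 0.603 in HY in the first Hist1 cluster, 0.920 and 0.706 in the second, and 0.912 and 0.861 in the Hist2 cluster. All 5 types showed a median below 1 in both genotypes, from 0.835 (H1) to 0.910 (H2A) in WT and from 0.670 (H4) to 0.744 (H1) in HY. Peaks of a cluster lie near each other and may share local background, so they cannot be taken as 45 separate measurements. The background still varied within a cluster, from 2.67 to 8.52 in the first Hist1 cluster in WT D0. How much the neighbouring peaks of a cluster contribute to this background was not tested.

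**Figure D3:**
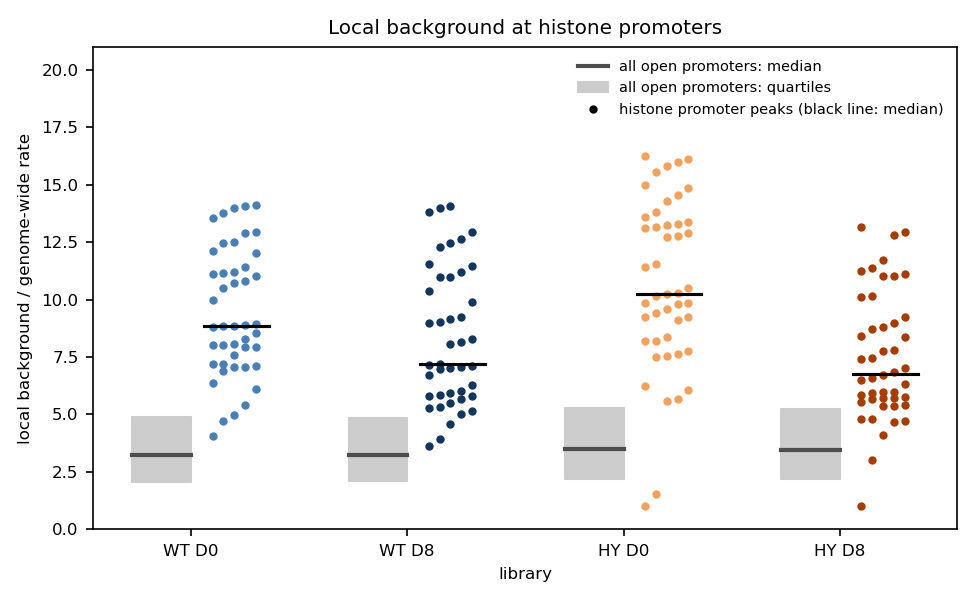
Local background of promoter peaks divided by the genome-wide rate of the library (y axis, no unit) in the 4 libraries (x axis): grey boxes span the quartiles of all open promoters with the median as a line, points are distinct histone promoter peaks and black lines their medians. Histone medians of 8.86, 7.16, 10.3 and 6.78 stand beside medians of 3.24, 3.22, 3.47 and 3.44 for all open promoters, and the few points near 1 in HY are the weak peaks described above.

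In the Hist1 and Hist2 clusters the length that lay within peaks was lower at D8. Peaks covered 24.2 kb (7.33%) of the first Hist1 cluster at D0 and 15.1 kb at D8 in WT, and 28.4 kb and 15.5 kb in HY. In the second Hist1 cluster the cover was 22.3, 15.7, 23.4 and 16.5 kb in the same order of libraries, and in the Hist2 cluster 9.67, 7.03, 11.1 and 7.10 kb. The cover at D8 was thus 0.624, 0.704 and 0.727 of that at D0 in WT and 0.546, 0.705 and 0.640 in HY. In the small Hist3 cluster it was 0.909 kb at D0 and 0.905 kb at D8 in WT, a ratio of 0.996, and 1.37 and 0.866 kb in HY, a ratio of 0.632. For the whole lists it was 0.473 in WT and 0.506 in HY. The whole lists include peaks far from promoters, and whether the same stretches were covered on both days was not tested. D8 had the lower depth in both genotypes, and its part in the cover was not tested.

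Part of the short histone genes lay in open chromatin along their whole length. Of the 51 members up to 1 kb long, 11 (21.6%) lay entirely within peaks at D0 and 3 (5.88%) at D8 in WT, and 13 (25.5%) and 4 (7.84%) in HY. Among 1574 other genes of a single exon up to the same length, the shares were 1.40%, 0.699%, 1.65% and 1.02%. These other genes were taken whether or not their promoter was open, and their open share was not counted. The shares therefore do not compare open genes with open genes. Histone genes up to 1 kb were covered over a median of 81.2%, 65.0%, 86.8% and 60.1% of their length. The summit lay at up to 200 bp from a start in 48 of 62 open members (77.4%) at D0 and 42 of 62 (67.7%) at D8 in WT, and in 48 of 66 (72.7%) and 46 of 64 (71.9%) in HY. The shares over all open promoters were 76.8%, 80.0%, 76.7% and 78.7% in the same order of libraries, so the histone shares lay close to or below them.

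The letters of 7 promoter elements were searched on both strands from 250 bp before to 50 bp after each gene start. No string contains another, but the windows of a divergent pair overlap, so letters between the starts can count for both genes. TATAAA was found in 38 of 67 members, against 13.4% of all protein-coding promoters, and CCAAT in 57 members, against 37.9%. CCAAT was present in all 19 H2A, all 18 H2B, all 6 H1 and 10 of 11 H3 promoters and in 4 of 13 H4 promoters. The octamer ATTTGCAT, bound by POU factors, was found in 7 H2A and 8 H2B promoters and in no H1, H3 or H4 promoter, against 1.73% of all promoters. AAACACA was found in 5 of 6 H1 promoters, with Hist1h1a as the exception, and in 10 members in all, against 6.42%. GGTCCG was found in 12 of 13 H4 promoters, all but Hist1h4a, and in 15 members in all, against 9.78%. The E2F strings TTTGGCGC and, as a second form, TTTCCCGC were in 0 and 3 members, the 3 being H4 genes, against 0.680% and 1.33%. The median GC content of the window was 46.0% in members and 55.0% in all promoters, which bears on how often such strings occur.

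**Figure D4:**
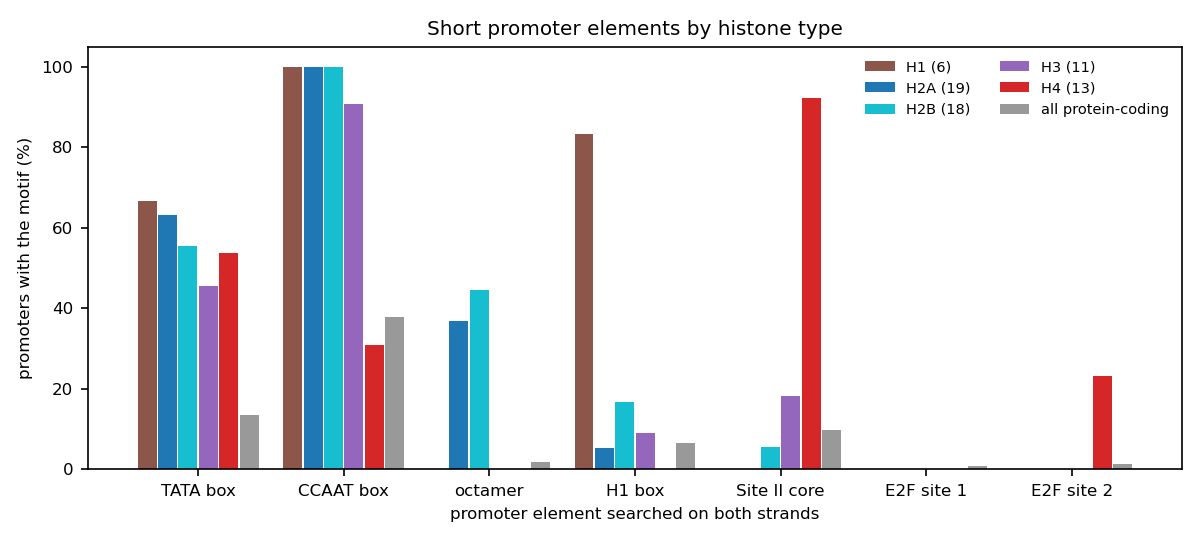
Share of promoters (y axis, percent, from 0) that hold the letters of each of 7 elements on either strand (x axis), by histone type with the number of genes in brackets, and for all 22367 protein-coding genes in grey. CCAAT is in every H1, H2A and H2B promoter, the octamer in H2A and H2B promoters only, the H1 box in 5 of 6 H1 promoters and the Site II core in 12 of 13 H4 promoters.

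Part of the family is repeated in the genome, which matters for where tags can be placed. In 56 members, under 10% of the 50-mers of the promoter occur anywhere else in mm9, and 11 members had more. The promoters of the pairs Hist1h2bq/Hist1h2ao and Hist1h2ap/Hist1h2br are exact copies by this measure (100%). Their pileups were 57 and 55 at D0 and 41 and 44 at D8 in WT, and 59 and 54 at D0 and 45 and 37 at D8 in HY. Similar pileups were thus listed at both copies, which cannot show whether both copies were open. Hist1h4m and Hist1h4n (94.0%) had 40 and 43, 30 and 28, 50 and 49, and 25 and 24. How tags with several matches were treated is not given in the sources used here, and values at these copies cannot be assigned to 1 of them. Among the 56 members with a unique promoter, 51, 51, 55 and 53 were open in the 4 libraries.

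Genes that work with these histones were open throughout, beside 50.8% of all genes open in all 4 libraries. All 18 listed genes for histone gene transcription and 3' end processing had a promoter peak in all 4 libraries. Among them are Npat, Hinfp (a factor of H4 promoters) and Slbp (the stem-loop binding protein). The same held for 9 of 9 histone chaperones, 23 of 23 DNA replication genes and 10 of 10 annotated replacement histones, which are also made outside S phase. Their median D8 to D0 ratios were 1.00 in WT and 1.10 in HY for the transcription and processing genes, 0.923 and 1.12 for the chaperones, 0.983 and 1.04 for the replication genes, and 1.07 and 1.08 for the replacement histones. The median single histone peak stood at 0.931 and 0.879. Of the 11 other protein-coding genes between the first and last member of a cluster, 8, 7, 6 and 5 were open in WT D0, WT D8, HY D0 and HY D8. In each library 2 of these, Trim17 and Gm17658, shared their peak with a member, Hist3h2a and Hist1h4d. The peak of Trim17 and Hist3h2a cannot be assigned to either gene. The other 6, 5, 4 and 3 open neighbours had a peak not shared with a member. The open neighbours made up 72.7%, 63.6%, 54.5% and 45.5% of the 11, near the 58.4%, 53.2%, 59.3% and 54.7% of all genes. Pom121l2 and Slc17a1 had a peak in WT only and Slc17a4 at D0 only.

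The labelled cell states were checked against marker promoters. Of 7 preadipocyte markers, 7, 3, 6 and 3 were open in WT D0, WT D8, HY D0 and HY D8, and of 8 adipocyte markers 4, 8, 4 and 8, with Adipoq, Fabp4, Plin1 and Cidec open at D8 only. Among the preadipocyte markers, Ly6a, Thy1 and Cd34 were open at D0 only and Dlk1 in WT D0 only. Of 6 beige markers, 2, 4, 4 and 4 were open, with Cidea and Ppargc1a open in all libraries but WT D0, and the defining genes Ucp1 and Dio2 had no promoter peak in any library. Of 4 endothelial markers 3, 0, 2 and 1 were open, of 4 neuronal markers 2, 1, 3 and 1, of 4 muscle markers 0, 1, 0 and 0, and of 4 macrophage markers none in any library. The genes of these other cell types whose call differed were Tek, Kdr and Pecam1 (endothelial), Syt1 and Rbfox3 (neuronal) and Acta1 (muscle), of which Acta1 had its peak in WT D8 only, Kdr at D0 and in HY D8, and the rest at D0 only. Day and cell state move together in these libraries, and the part of either in the histone values was not tested.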

How the data were processed

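The 4 ATAC-seq libraries of im-scWAT cells were each given as 1 peak list, called on that library alone. Per the labels, reads were aligned to mm9 with Bowtie2 and handled with SAMtools, Picard and deepTools; the study describes adapter trimming, duplicate removal and MACS-type peak calling. Versions, the calling threshold, the treatment of tags with several matches and a shift for the Tn5 offset are not given in the sources used here. An unshifted end moves a summit by a few bp.

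The authors' caller gave for each summit the fold over the local background, a ratio, which was not normalised between libraries. The deposited −log10 p and −log10 q are the caller's own, and the deposited score, a rescaled −log10 q, was not used for a result. Pileup and local background were solved from the fold and −log10 p, which succeeded for 100% of the peaks of each list within 0.002 of −log10 p and was tested on simulated peaks. The lowest background of a list was taken as its genome-wide rate and served as its depth. Whether this rate follows depth alone was not tested. The absolute number of tags is unknown.

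Genes, starts and sequences came from the mm9 reference and its GENCODE annotation, and coordinates are 1-based on this build. For a gene with several peaks within 1 kb of a start, the one with the highest pileup was taken. Ratios were computed from pileups summed over distinct peaks, with exact conditional binomial intervals at 95%. Repeats were counted as 50-mers found more than once in the genome. Genes were named by a rule: members whose call differed or that had no peak, the 3 highest of each type by mean scaled pileup, the Hist3 and Hist4 members and the germ cell histones, and of other lists the genes whose call differed. Npat, Hinfp, Slbp, Ucp1, Dio2 and members used to explain a shared, repeated or printed promoter were added. Members, lists and marker genes were chosen with earlier results of these data known. H1f0 was listed as a replacement histone but is not annotated under that symbol. Python 3.11.15, NumPy 2.4.6, pandas 2.3.3, SciPy 1.17.1 and matplotlib 3.10.9 were used. The counts of open members and of changed calls were repeated under other distances, peak thresholds and list lengths. Other counts were not repeated.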

Additional observations from a re-analysis of the deposited data

How the results depend on the processing

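The number of open histone promoters stayed within 1.5 times the reported count in all 32 recomputed values, which ran from 48 to 62 in each WT library, from 51 to 66 in HY D0 and from 49 to 65 in HY D8; the lowest counts include those over 52 promoter units and 56 unique members, which have smaller totals. The counts of changed calls are small and moved more: 45 of 64 stayed within that limit. With the summit within 500 bp, 1 member was open at D0 and not D8 in WT, 1 at D8 and not D0 in WT and 3 in HY, and 5 at D0 and 3 at D8 were open in WT and not in HY. Within 2 kb, 1 member was open at D0 and not D8 in HY, and 0 in WT and not in HY at D8. When peaks needed a −log10 q of 5 or more, the counts at D0 and not D8 were 2 in WT and 5 in HY, 3 were open at D8 and not D0 in HY, 5 in HY and not in WT at D8, and 1 at D0 and 3 at D8 in WT and not in HY. With every list shortened to 41228 peaks, 1 was open at D0 and not D8 in HY, 6 in WT and 7 in HY at D8 and not D0, 2 in HY and not in WT at D0, and 2 at D0 and 3 at D8 in WT and not in HY. Over all genes the share changed under these 4 settings ran from 2.86% to 7.43% for open at D0 and not D8, from 1.21% to 3.50% for the reverse, from 1.79% to 3.13% for HY and not WT and from 1.25% to 2.03% for WT and not HY. The cause of these shifts was not tested beyond the distance, threshold or length that makes each setting.

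Of the summed pileup ratios, 23 of 28 recomputed values lay within the reported interval, but some intervals changed side: with the nearest summit D8 over D0 in WT was 0.932 (0.874 to 0.994) and no longer took in 1, and HY over WT at D0 took in 1 within 2 kb (0.986 to 1.12), with −log10 q of 5 or more (0.995 to 1.13) and over unique members (0.994 to 1.14). Without scaling for depth, D8 over D0 was 0.760 (0.711 to 0.813) in WT and 0.624 in HY, and HY over WT at D0 was 1.14. With the median of all promoters set to 1, HY over WT was 0.999 (0.940 to 1.06) at D0, now below 1, and 0.904 (0.839 to 0.972) at D8, which no longer took in 1. The D8 to D0 ratio stayed below 1 under each setting in both genotypes, from 0.760 to 0.974 in WT and from 0.624 to 0.923 in HY. No paired analysis was possible because each group has 1 library and the labels carry no replicate numbers. Signal below the lowest listed pileup of a library could not be read, and the part of the lower depth at D8 in the calls was not tested.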
